A study of Mus musculus with 6 samples.

Results

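Complex I is the NADH:ubiquinone oxidoreductase of the mitochondrial inner membrane. The genes described here are 47 nuclear genes of this complex, 35 encoding structural subunits and 12 encoding assembly factors. They were matched by symbol to a list drawn up with earlier results of these data known, and the matching itself uses no measured value. All 47 were found once each among the 54146 genes listed in the deposited count tables, and all 47 passed the filter on low counts, which left 17308 genes for testing.

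Messenger RNA was sequenced from whole kidneys of mice of strain B6C3F1/J at 12 weeks of age (postnatal day 84). The 3 libraries labelled Tfam f/f come from mice whose Tfam gene is flanked by loxP sites, without Cre. The 3 libraries labelled KspCre Tfam f/f carry the same floxed alleles and a Cre transgene driven by the promoter of kidney-specific cadherin, so recombination is limited to tubule cells that use this promoter and the other cells of the whole kidney keep Tfam. The floxed alleles are therefore common to both groups. Whether each library is a separate mouse is not stated in the labels, so p-values cover the variation among these libraries alone, and that variation may be technical. The groups are called control-labelled and Cre-labelled from here on, since what they contain is known only from their labels.

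Total counts over genes ranged from 19024208 to 34821537 in the control-labelled libraries and from 30348281 to 48899266 in the Cre-labelled ones. Tfam, the targeted gene, went against the labels. It stood at 30.3, 33.6 and 23.2 normalized CPM (CPM is the read count of a gene relative to the library size, here after scaling) in the control-labelled libraries and at 63.1, 63.5 and 61.4 in the Cre-labelled ones. The names of the deposited count tables also go against the labels, since the letters WT stand in those of the Cre-labelled libraries and not in the others. Whether the genotype labels were exchanged cannot be told from these sources, and an exchange would turn every direction below, each of which refers to the labels as deposited. Of the defining markers checked for each kidney cell type, 0 were at a count of 0 in all libraries. Proximal tubule markers summed to 3097 to 13071 normalized CPM in the control-labelled libraries and to 27473 to 29686 in the Cre-labelled ones, and 10 of 10 were higher in the latter. Macrophage markers summed to 162 to 523 and to 128 to 140.3 in the same order, and 7 of 8 were lower in the Cre-labelled libraries. Other tubule types did not all move one way, with 4 of 6 thick ascending limb, 4 of 5 distal convoluted tubule and 5 of 5 intercalated cell markers higher, and 0 of 6 principal cell markers higher and 4 lower. Of the remaining lists, 3 of 5 podocyte, 1 of 6 endothelial and 4 of 5 erythroid markers were higher, and 3 of 6 fibroblast and 2 of 5 T cell markers were lower. Beside these counts, 21.3% of all tested genes were called higher and 24.9% lower. The endothelial share called higher, 16.7%, lay near that background, and lists this short give only coarse shares. In bulk tissue, fewer cells of a type and less RNA per cell cannot be told apart, and the part of cell composition in the results below was not tested.

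Complex I takes electrons from NADH, passes them along iron-sulfur clusters to ubiquinone and pumps protons across the inner membrane. A peripheral arm in the matrix holds the NADH site and the clusters, and a membrane arm holds the proton pumps, several of which are encoded by mitochondrial DNA as the ND proteins. Around these core subunits sit accessory subunits, all encoded in the nucleus. Assembly factors help to build the complex and are absent from the finished enzyme. Kidney tubules, the proximal tubule above all, depend on this chain for ATP to drive transport.

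In the Cre-labelled libraries, 6 of the 35 subunit mRNAs were higher and 0 were lower (edgeR's quasi-likelihood test, Benjamini-Hochberg adjusted p under 0.05). Of the 12 assembly factor mRNAs, 6 were higher and 0 were lower. Among all tested genes 21.3% were called higher and 24.9% lower, 46.2% in either direction. The subunits' share called higher, 17.1%, lay near that background, and the assembly factors' share was 50.0%. The difference between these shares was not tested. The median log2 fold change was 0.23 over the subunits and 0.30 over the assembly factors, beside -0.03 over all tested genes. Without scaling of library sizes these medians turned to -0.18 and -0.12, while that of all genes moved to -0.46. Relative to all genes the members stood 0.27 and 0.33 higher, against 0.26 and 0.33 with scaling. Scaling shifts all genes of a library alike, so these differences were bound to stay nearly the same and are no test of the scaling. Without scaling, 0 subunits were called higher and 7 lower, and 1 assembly factor higher and 5 lower, where 9.71% of all genes were called higher and 49.2% lower.

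**Figure D1:**
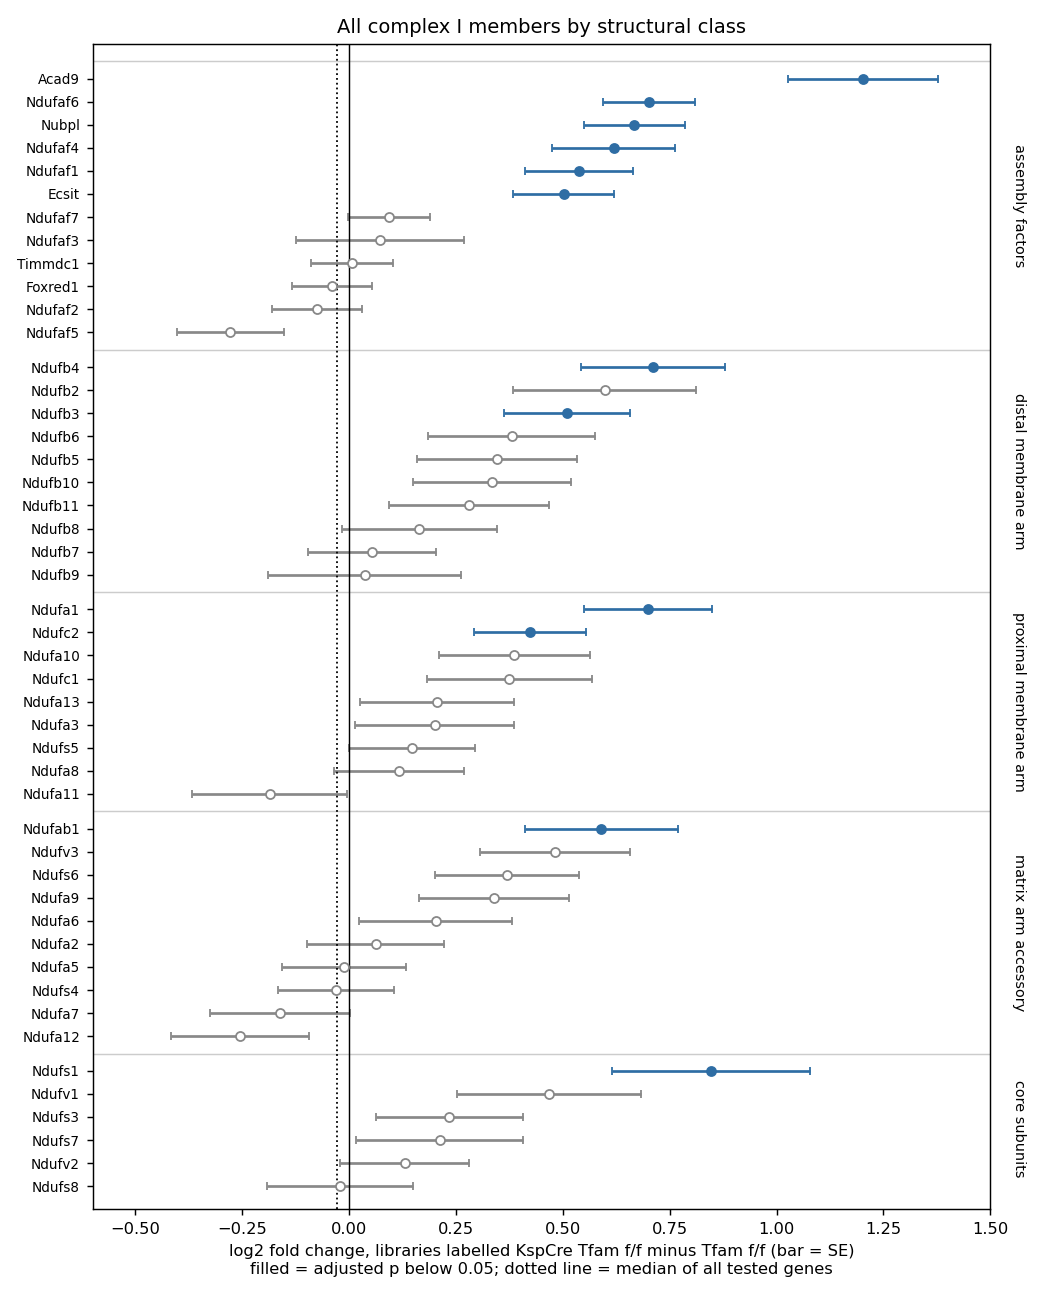
Log2 fold change (Cre-labelled minus control-labelled libraries, horizontal axis) of the 47 members, grouped by structural class, with bars for the standard error, filled points for adjusted p below 0.05 and a dotted line at the median of all tested genes. The 12 filled points all lie to the right of 0 with scaled library sizes, while without scaling only Acad9 was called higher.

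The core subunits include those that carry the cofactors. Of the 6 in the list, 1 was higher and 0 were lower. Ndufs1 (ENSMUSG00000025968.16, chr1:63143596-63176833 in mm10, minus strand) encodes the large core subunit that binds several iron-sulfur clusters. It stood at 236, 309 and 161 normalized CPM in the control-labelled libraries and at 421, 426 and 421 in the Cre-labelled ones. The latter were all above the former and lay within a narrow range, while the former spread widely. The means were 235 ± 74.0 and 423 ± 3.18 (SD, n = 3 each), a 1.80-fold difference (log2 fold change 0.85, SE 0.23, edgeR adjusted p = 0.0200). A 95% interval taken from this SE by the normal distribution ran from 1.31 to 2.46, which is narrower than the quasi-likelihood test implies. The call was lost without control-labelled replicate 1 (adjusted p = 0.0698) and without any 1 of the Cre-labelled libraries (adjusted p = 0.0600, 0.0628 and 0.0609 for replicates 1, 2 and 3).

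Ndufv1, which binds NADH and the flavin, had the highest level per transcript length of the core subunits in the Cre-labelled libraries, where it stood at 211 CPM per kilobase and Ndufv2 at 197. In the control-labelled libraries Ndufv2 was higher, at 179.8 against 153. Before division by length, Ndufv1 stood at 292, 296 and 173 normalized CPM against 334, 365 and 353, and the groups did not overlap. Its log2 fold change of 0.47 (SE 0.22) did not pass the test (edgeR adjusted p = 0.11). Ndufs8, which holds clusters near the ubiquinone site, stood at 167, 135 and 104 against 128, 141 and 130.4. Here the Cre-labelled libraries fell inside the range of the others, and the log2 fold change was -0.02 (SE 0.17, edgeR adjusted p = 0.928). The remaining core subunits Ndufs3, Ndufs7 and Ndufv2 had log2 fold changes of 0.23, 0.21 and 0.13, and their groups overlapped. For Ndufs3, copies at 95% identity or more in other genes cover 75.7% of the transcript, so its counts are uncertain.

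Of the 10 accessory subunits of the matrix arm, 1 was higher and 0 were lower. Ndufab1 (ENSMUSG00000030869.11, chr7:122085403-122101886, minus strand) encodes the mitochondrial acyl carrier protein, which also serves fatty acid synthesis and iron-sulfur cluster formation. Its values were 118, 109.6 and 73.0 normalized CPM in the control-labelled libraries and 147, 161 and 144 in the Cre-labelled ones. All 3 of the latter were above all 3 of the former, by 1.5-fold in the fit (log2 fold change 0.59, SE 0.18, edgeR adjusted p = 0.0296). Without replicate 1, 2 or 3 of the Cre-labelled libraries, the call was lost (adjusted p = 0.0730, 0.0970 and 0.0699).

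Among the matrix arm accessory subunits that did not pass, Ndufv3, a small subunit beside the flavoprotein, had the largest positive difference. Its values were 129.9, 109 and 80.0 normalized CPM against 139.7, 158 and 147, with no overlap. The log2 fold change was 0.48 (SE 0.17, edgeR adjusted p = 0.0540), just outside the threshold. Ndufa12 had the most negative difference. This subunit takes the place of its paralog Ndufaf2, an assembly factor, late in assembly. Ndufa12 stood at 166, 124 and 108 normalized CPM against 107, 116 and 109.9, so that the groups overlapped (log2 fold change -0.26, SE 0.16, edgeR adjusted p = 0.226). Without control-labelled replicate 3 it was called lower (log2 fold change -0.39, adjusted p = 0.0419). Copies at 95% identity or more elsewhere in the annotation cover 71.0% of its transcript, so its counts are uncertain. Ndufa6, a subunit that holds Ndufab1 in the complex, had the highest level per length of representative transcript of all 47 members. Its values were 175, 147 and 107 normalized CPM against 156, 175 and 162, an overlapping pair of groups with a log2 fold change of 0.20 (SE 0.18, edgeR adjusted p = 0.380). The other 6 of this class, Ndufs4, Ndufs6, Ndufa2, Ndufa5, Ndufa7 and Ndufa9, did not pass either. Their log2 fold changes ran from -0.16 for Ndufa7 to 0.37 for Ndufs6, and only for Ndufa9 did the groups not overlap.

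The membrane arm next to the matrix arm, here called proximal, was represented by 9 accessory subunits, of which 2 were higher and 0 lower. Ndufa1 (ENSMUSG00000016427.7, chrX:37187588-37191163, minus strand) is a small single-span membrane subunit needed for assembly. It stood at 75.1, 63.4 and 50.1 normalized CPM in the control-labelled libraries and at 94.3, 105 and 107 in the Cre-labelled ones. The groups were well apart, with means of 62.9 ± 12.5 and 102 ± 6.82 (SD, n = 3 each). The fitted difference was 1.62-fold (log2 fold change 0.70, SE 0.15, edgeR adjusted p = 0.00845), the smallest adjusted p among the subunits. Ndufc2 (ENSMUSG00000030647.8, chr7:97400003-97407802, plus strand), another membrane subunit, stood at 82.1, 80.2 and 59.8 against 97.3, 99.6 and 101. Its 3 values in the Cre-labelled libraries were nearly equal and all higher, by 1.34-fold (log2 fold change 0.42, SE 0.13, edgeR adjusted p = 0.0321). That call was lost without any 1 of them (adjusted p = 0.0818, 0.0924 and 0.0991 for replicates 1, 2 and 3).

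Ndufa10, which has the fold of a nucleoside kinase, had values of 255, 229.8 and 165 normalized CPM against 269.6, 293 and 287. The groups did not overlap, but the log2 fold change of 0.39 (SE 0.18) did not pass (edgeR adjusted p = 0.108). Ndufa11, a membrane subunit at the contact with complex III in respiratory supercomplexes, had the only negative value of this class. It stood at 104, 68.8 and 63.9 normalized CPM against 65.4, 73.6 and 69.0 (log2 fold change -0.19, SE 0.18, edgeR adjusted p = 0.426). Its mean in the control-labelled libraries was raised by replicate 1, and without that library the log2 fold change was 0.08. The remaining Ndufa3, Ndufa8, Ndufa13, Ndufs5 and Ndufc1 had overlapping groups and log2 fold changes from 0.12 for Ndufa8 to 0.37 for Ndufc1, none of which passed.

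All 10 accessory subunits of the distal membrane arm, the end that holds the last proton pumps, had positive log2 fold changes, where 48.2% of all tested genes did. Of these, 2 passed the test. Ndufb4 (ENSMUSG00000022820.4, chr16:37647170-37654453, minus strand) stood at 57.6, 46.4 and 35.3 normalized CPM in the control-labelled libraries and at 70.4, 80.4 and 77.2 in the Cre-labelled ones. It was higher in all 3 of the latter, by 1.64-fold (log2 fold change 0.71, SE 0.17, edgeR adjusted p = 0.0121). Ndufb3 (ENSMUSG00000026032.8, chr1:58586384-58595964, plus strand) stood at 79.2, 71.0 and 52.9 against 94.7, 93.9 and 101. Again no value of one group reached the other, and the difference was 1.42-fold (log2 fold change 0.51, SE 0.15, edgeR adjusted p = 0.0253). The Ndufb3 call was lost without any 1 of the Cre-labelled libraries (adjusted p = 0.0678, 0.0666 and 0.0851 for replicates 1, 2 and 3). Of the representative transcripts, 40.2% of Ndufb4 and 37.0% of Ndufb3 match other genes of the annotation at 95% identity or more over at least 100 bases. The deposited tables set reads that align to several places aside in a summary line, so the counts of both genes are uncertain, as are those of Ndufab1, with 33.3% of its transcript in such copies. Such copies also cover 61.3% of Ndufs6, 60.8% of Ndufs5 and 50.0% of Ndufb11, and another gene overlaps 28.6% of Ndufb9 and 19.7% of Ndufb8 on the same strand.

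Ndufb2 lay just outside the threshold at 11.5, 9.59 and 6.34 normalized CPM against 13.0, 13.1 and 15.5 (log2 fold change 0.60, SE 0.21, edgeR adjusted p = 0.0517). Its 3 values in the Cre-labelled libraries were all above the others. It passed with DESeq2 (adjusted p = 0.0278) and with limma voom (adjusted p = 0.0436). Its counts are uncertain, because 31.9% of the transcript overlaps another gene on the same strand. Ndufb10, the member of this class with the highest level per length, stood at 176, 156 and 105 normalized CPM against 181, 188 and 183 without overlap (log2 fold change 0.33, SE 0.19, edgeR adjusted p = 0.173). The other 6 that did not pass, Ndufb5, Ndufb6, Ndufb7, Ndufb8, Ndufb9 and Ndufb11, ran from 0.04 for Ndufb9 to 0.38 for Ndufb6 on the log2 scale. Of these 6, only Ndufb6 had groups that did not overlap.

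**Figure D2:**
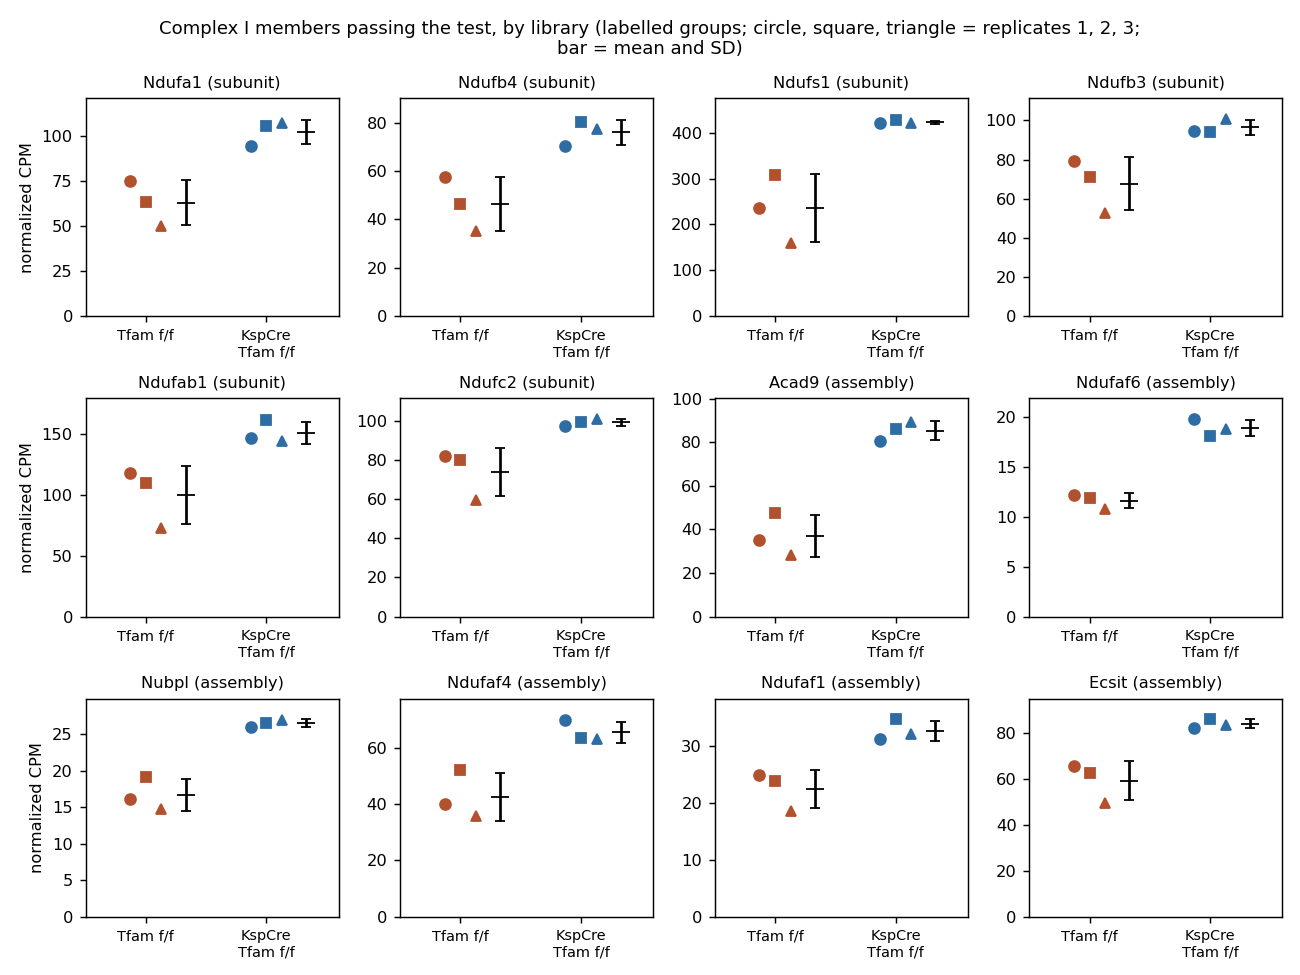
Normalized CPM (vertical axes, each from 0) in every library for the 12 members with adjusted p below 0.05, with circles, squares and triangles for replicates 1, 2 and 3 and bars for mean and SD (n = 3). In each panel the 3 Cre-labelled libraries lie above the 3 control-labelled ones. Without scaling of library sizes only Acad9 of the 12 passed the test.

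Of the 12 assembly factors, 6 were higher and 0 lower. Acad9 (ENSMUSG00000027710.14, chr3:36065979-36092853, plus strand) encodes a relative of the acyl-CoA dehydrogenases that works in a membrane-arm assembly complex. It stood at 35.2, 47.4 and 28.4 normalized CPM in the control-labelled libraries and at 80.6, 86.2 and 89.1 in the Cre-labelled ones. The lowest of the latter was far above the highest of the former. The means were 37.0 ± 9.60 and 85.3 ± 4.30 (SD, n = 3 each), a 2.30-fold difference (log2 fold change 1.20, SE 0.18, edgeR adjusted p = 0.00199). This was the largest fold among the 47 members. Its 95% interval by the normal distribution, 1.81 to 2.92, is again narrower than the quasi-likelihood test implies. Acad9 was also the only called member that kept its call in all 15 alternative fits, the one without scaling included. Of its representative transcript, 14.2% overlaps another gene on the same strand.

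Ecsit and Ndufaf1 encode further parts of that membrane-arm assembly complex. Ecsit (ENSMUSG00000066839.12, chr9:22072246-22085438, minus strand), also known as a signalling adaptor, stood at 65.7, 62.9 and 49.7 normalized CPM against 82.5, 86.3 and 83.8. It was higher in all 3 Cre-labelled libraries, by 1.42-fold (log2 fold change 0.50, SE 0.12, edgeR adjusted p = 0.0116). An antisense gene overlaps 10.8% of its transcript, and reads of the pair cannot be told apart where the strand setting is unknown. Ndufaf1 (ENSMUSG00000027305.9, chr2:119655446-119662827, minus strand) stood at 25, 23.9 and 18.7 against 31.3, 34.8 and 32.2. Its groups were apart by 1.45-fold (log2 fold change 0.54, SE 0.13, edgeR adjusted p = 0.0114), and the call was lost without Cre-labelled replicate 2 (adjusted p = 0.0512).

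Nubpl, Ndufaf4 and Ndufaf6 act on other modules. Nubpl (ENSMUSG00000035142.18, chr12:52097737-52312744, plus strand), a protein for iron-sulfur cluster delivery, stood at 16.1, 19.2 and 14.8 normalized CPM against 26.0, 26.6 and 27.0. It was 1.59-fold higher with no overlap (log2 fold change 0.67, SE 0.12, edgeR adjusted p = 0.00405). Ndufaf6 (ENSMUSG00000050323.14, chr4:11051045-11076205, minus strand), an early assembly factor, stood at 12.2, 11.9 and 10.8 against 19.8, 18.1 and 18.8. Both of its groups were tight and clearly apart, by 1.63-fold (log2 fold change 0.70, SE 0.11, edgeR adjusted p = 0.00240). Ndufaf4 (ENSMUSG00000028261.13, chr4:24898083-24905001, plus strand), which works with Ndufaf3 on the ubiquinone-binding module, stood at 40.0, 52.1 and 35.6 against 69.9, 63.3 and 63.1. It was higher in all 3 Cre-labelled libraries, by 1.54-fold (log2 fold change 0.62, SE 0.14, edgeR adjusted p = 0.0111).

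The other 6 assembly factors did not pass, and their log2 fold changes lay between -0.28 and 0.09. Ndufaf5, which hydroxylates the subunit Ndufs7, had the most negative value of the 47 members. It stood at 15.7, 16.1 and 12.9 normalized CPM against 12.1, 12.3 and 12.6 (log2 fold change -0.28, SE 0.12, edgeR adjusted p = 0.102). It was the only member with all Cre-labelled libraries below the others, and without control-labelled replicate 3 it was called lower (log2 fold change -0.38, adjusted p = 0.0226). Ndufaf7, which methylates a core subunit, stood at 39.5, 37.0 and 32.9 normalized CPM against 40.6, 38.1 and 38.1, with overlapping groups (log2 fold change 0.09, SE 0.10, edgeR adjusted p = 0.448). For Ndufaf3, the partner of Ndufaf4, the log2 fold change was 0.07 (SE 0.20). For the membrane factor Timmdc1 it was 0.01 (SE 0.10). For the flavoprotein Foxred1 it was -0.04 (SE 0.09), and for Ndufaf2 it was -0.08 (SE 0.10).

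The promoters of the members were read for motifs of factors known to act on respiratory genes. RefSeq promoter windows in build GRCm38.p6, from 250 bases before to 50 bases after each start, were matched for 42 of the 47 members (44 windows). Of the 12 called members 9 had a window, while Ndufs1, Acad9 and Ndufaf6 had none. The palindromic motif of NRF1 (nuclear respiratory factor), whose letters are the capitals in the sequences below and read the same on both strands, was in 3 of the 44 windows (6.82%), where 0.971% of all 32851 windows held it. Among the 13956 windows matched to 10900 of the 17308 tested genes, 1.85% held it. Those of the 3 members are shown because 1 of them, Ndufaf4, was called higher and the other two were not. Capitals mark the motif, and all 3 lie on the plus strand of the build: Ndufa11 at chr17:56717682-56717731, Ndufaf4 at chr4:24897950-24897999 and Ndufaf5 at chr2:140170654-140170679.
Ndufa11: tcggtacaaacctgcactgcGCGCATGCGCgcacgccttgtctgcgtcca
Ndufaf4: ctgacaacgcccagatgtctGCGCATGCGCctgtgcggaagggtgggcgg
Ndufaf5: tcccgttgGCGCATGCGCctaataga
The motif began 60 and 113 bases before the annotated start in Ndufa11 and Ndufaf4, and at transcribed base 17 in Ndufaf5. These 3 genes had log2 fold changes of -0.19, 0.62 and -0.28, of which only that of Ndufaf4 passed the test.

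The motif of YY1, AAGATGGC, searched on both strands, was in 7 of the 44 windows (15.9%), against 2.75% of all windows and 3.95% of those of tested genes. All 7 were windows of subunits, and the motif lay in the sense direction, with its first letter between transcribed bases 23 and 39. Of all 927 matches in the 32851 windows, 30.6% were in the sense direction and transcribed. In all 7 its ATG was the annotated start codon, so that the same letters also encode the first amino acids. An example from each structural class of subunits is shown, with the motif in capitals: Ndufs7 at chr10:80249465-80249488 (plus strand), Ndufs4 at chr13:114388045-114388067 (minus), Ndufa3 at chr7:3617387-3617410 (plus) and Ndufb8 at chr19:44555393-44555412 (minus).
Ndufs7: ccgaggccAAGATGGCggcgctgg
Ndufs4: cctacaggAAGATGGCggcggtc
Ndufa3: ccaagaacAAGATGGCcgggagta
Ndufb8: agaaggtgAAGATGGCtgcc
Of the 7 genes, which also include Ndufa9, Ndufc1 and Ndufs6, 0 were called in either direction. The share called was 17.1% over the 35 subunits and 46.2% over all tested genes. So few genes cannot show whether the motif and the calls are related, which was not tested. The ETS motif of GABPA, CCGGAAGT on either strand, was in 2 of the 44 windows (4.55%, against 3.89% of all and 6.98% of those of tested genes), and the motif of the estrogen-related receptors, TCAAGGTCA on either strand, was in 0 (0.423% of all and 0.265% of those of tested genes). The members' windows had a median GC content of 59.3%, against 52.7% over all windows and 60.0% over those of tested genes.

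Per kilobase of representative transcript, the subunits stood at 30.5 to 279 CPM in the Cre-labelled libraries, with a median of 152, and the assembly factors at 8.89 to 50.3, with a median of 19.9. In the control-labelled libraries the medians were 136 and 14.2. On this scale the highest members in the Cre-labelled libraries were Ndufa6 at 279, Ndufb10 at 251 and Ndufa1 at 244. The lowest subunit was Ndufb2 at 30.5, below Ecsit, the highest assembly factor, at 50.3. The lowest member of all was Nubpl at 8.89. Apart from Ndufb2, every subunit was above every assembly factor in the Cre-labelled libraries on this scale, with Ndufc1 at 50.9 the nearest to Ecsit. The ranking depends on the length used. Per kilobase of all annotated exons of a gene, Ndufb7 (21.0), Ndufab1 (21.9) and Ndufb5 (30.2) also lay below Ecsit (33.8). Ndufa6 then stood at 91.3, below Ndufa1 at 244 and Ndufb11 at 184.

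**Figure D3:**
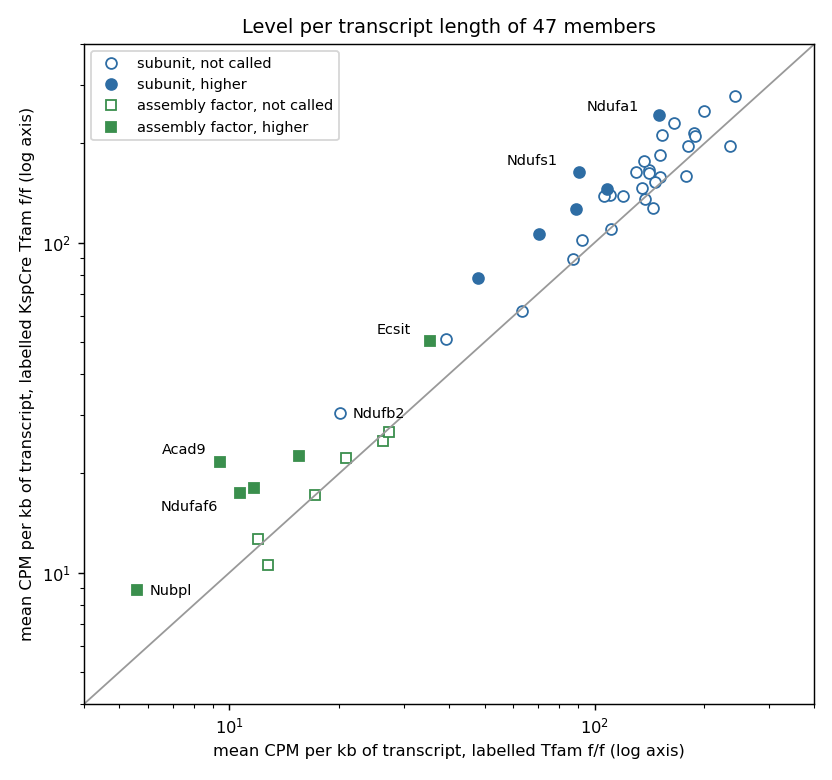
Mean CPM per kilobase of representative transcript of the 47 members in the control-labelled libraries (horizontal, log axis) and the Cre-labelled libraries (vertical, log axis), with circles for subunits, squares for assembly factors, filled symbols for those called higher and a line of equality. The assembly factors lie at or below 50.3 in both groups, and the filled symbols lie above the line with scaled library sizes.

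The members varied much more among the control-labelled libraries than among the others. The median coefficient of variation over the members was 22.9% in the former and 4.71% in the latter, beside 18.0% and 7.22% over all tested genes. It was 23.6% for subunits and 12.7% for assembly factors in the control-labelled libraries. In that group, all 47 members were lowest in replicate 3, the shallowest library, which was the lowest for 35.6% of all tested genes. Replicate 1 was the highest for 33 of the 35 subunits and for 7 of the 12 assembly factors.

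Summed over the 35 subunits, normalized CPM was 4769, 4079.8 and 3017 in the control-labelled libraries and 4661, 5042 and 4837 in the Cre-labelled ones. The groups overlapped, since replicate 1 of the first was above replicate 1 of the second. Summed over the 12 assembly factors it was 385, 396 and 314 against 485, 486 and 489, with no overlap. The ratio of the subunit sum to the assembly factor sum was 12.4, 10.3 and 9.60 against 9.62, 10.4 and 9.88, and the groups overlapped. Counted member by member, the Cre-labelled libraries were all above the others for 13 of 35 subunits (37.1%) and 6 of 12 assembly factors (50.0%), where 29.8% of all tested genes did so. They were all below for 0 subunits and 1 assembly factor, where 32.1% of all tested genes did so. Leaving out control-labelled replicate 3 brought the median log2 fold change of the subunits from 0.23 to 0.08 and that of the assembly factors to 0.20. Without control-labelled replicate 1 the medians were 0.44 and 0.47, and 9 subunits were called higher, where 16.1% of all tested genes were. Without any 1 of the Cre-labelled libraries only Ndufa1 and Ndufb4 were called among the subunits, where 13.1%, 12.8% and 12.7% of all tested genes were called higher without replicates 1, 2 and 3.

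The mitochondrially encoded subunits of the complex were set beside the nuclear ones. All 7 ND mRNAs were higher in the Cre-labelled libraries, with log2 fold changes of 1.89 to 2.33 and a median of 2.17. For mt-Nd4, a proton-pumping subunit, the values were 2350.0, 3937 and 1252 normalized CPM against 10897, 11629.5 and 11291, and the groups were far apart (log2 fold change 2.17, SE 0.45, edgeR adjusted p = 0.00733). For mt-Nd1, at the ubiquinone site, they were 3798, 6786 and 2588 against 15985, 16534 and 16358 (log2 fold change 1.89, SE 0.43, edgeR adjusted p = 0.0101). The log2 fold change was 2.23 for mt-Nd2, 2.12 for mt-Nd3, 2.24 for mt-Nd4l, 2.04 for mt-Nd5 and 2.33 for mt-Nd6. Counts of mt-Nd3 and mt-Nd4l came to only 0.839 to 16.9 normalized CPM in any library. Reads that align to several places, set aside in the deposited tables, made up 5.06% to 6.74% of the control-labelled tables. In the Cre-labelled ones they made up 10.4% to 10.8%. The ND mRNAs were not searched for copies. How far such reads lower the ND counts, and with them the ratio to nuclear subunits, was not tested. Read from ND mRNAs per nuclear subunit mRNA, the ratio of summed CPM was 2.21, 5.16 and 2.22 in the control-labelled libraries and 11.3, 10.5 and 11.2 in the Cre-labelled ones, so that the ratios did not overlap. Among the control-labelled libraries, all 7 ND mRNAs and all 10 proximal tubule markers were highest in replicate 2. Most nuclear subunits were highest in replicate 1. In replicate 3 all 7 ND mRNAs and all 10 proximal tubule markers were lowest, as all 47 members were. Macrophage markers summed highest there, at 523 normalized CPM against 248 and 162 in replicates 1 and 2. What lies behind this shared pattern was not tested.

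**Figure D4:**
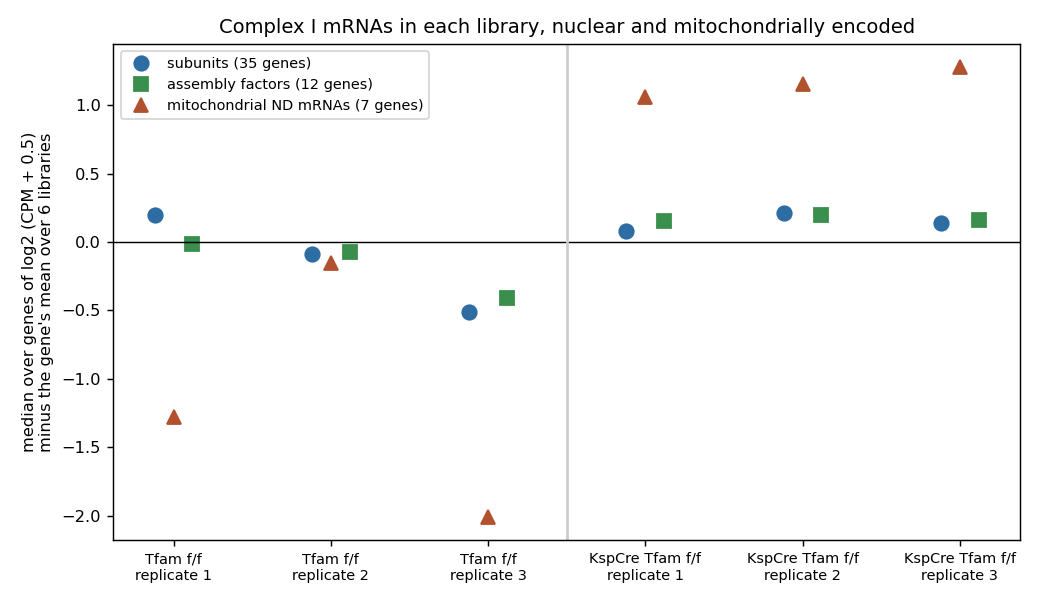
Median over genes of log2(CPM + 0.5) minus each gene's mean over the 6 libraries (vertical axis), for 35 subunits (circles), 12 assembly factors (squares) and 7 mitochondrially encoded ND mRNAs (triangles) in each library, with scaled library sizes. The subunits are at 0.20, -0.09 and -0.51 in the control-labelled libraries and at 0.08, 0.21 and 0.14 in the others, while the ND mRNAs run from -2.01 to 1.28.

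Other factors that act in complex I assembly were counted from a list of 12, of which 10 were found, 2 of them under older symbols. Of the 10, 6 were higher (60.0%) and 0 lower, where 21.3% of all tested genes were called higher and 24.9% lower. Tmem126b, a membrane partner of Acad9 and Ecsit, had the smallest adjusted p of this list. It stood at 27.4, 35 and 21.4 normalized CPM against 53.1, 50.8 and 50.2, well apart (log2 fold change 0.88, SE 0.17, edgeR adjusted p = 0.00518). Tmem186, another partner in that complex, stood at 19.6, 21.8 and 17.8 against 27.8, 26.5 and 26.4, also without overlap (log2 fold change 0.45, SE 0.11, edgeR adjusted p = 0.0116). Tmem126a, Tmem70, Aifm1 and Lyrm2 were also higher, with log2 fold changes of 0.52, 0.63, 0.64 and 0.50. Chchd4, Sfxn4 and the genes listed as Dmac1 and Dmac2 did not pass.

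Nuclear genes of the other respiratory complexes gave counts of the same order as the complex I subunits. Of 40 subunits of complexes II to V, without the complex II assembly factors, 5 were higher (12.5%) and 0 lower. Over all tested genes these shares were 21.3% and 24.9%. The median log2 fold change of the 40 subunits was 0.28. In complex II, Sdhc had the smallest p (log2 fold change 0.61, SE 0.18, edgeR adjusted p = 0.0245), and in complex III it was Uqcrfs1, the Rieske protein (0.73, SE 0.21, edgeR adjusted p = 0.0246). In complex IV it was Ndufa4, once assigned to complex I (log2 fold change 0.58, SE 0.19, edgeR adjusted p = 0.0376). In the ATP synthase it was Atp5f1 (log2 fold change 0.54, SE 0.18, edgeR adjusted p = 0.0410).

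Of 11 regulators of respiratory genes, 2 were higher (18.2%) and 1 lower (9.09%). Neither share exceeded that of all tested genes, 21.3% and 24.9%. Gabpa, the DNA-binding part of the factor whose motif was searched above, stood at 40.1, 53.2 and 36.4 normalized CPM against 67.0, 58.9 and 67.4 (log2 fold change 0.57, SE 0.15, edgeR adjusted p = 0.0165). The coactivator Ppargc1b stood at 10.4, 13.1 and 8.77 against 14.5, 13.9 and 17.0 (log2 fold change 0.49, SE 0.17, edgeR adjusted p = 0.0475). The related coactivator Pprc1 was lower, at 26.9, 28.5 and 36.5 against 17.6, 19.3 and 18.7 (log2 fold change -0.72, SE 0.13, edgeR adjusted p = 0.00469). For all 3 the groups did not overlap, where 29.8% of all tested genes had the Cre-labelled libraries all above and 32.1% all below. Nrf1, Yy1 and Ppargc1a did not pass, with log2 fold changes of -0.08, 0.24 and -0.01.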

How the data were processed

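RNA of whole kidneys was measured in 3 control-labelled and 3 Cre-labelled libraries. Libraries were strand-specific (dUTP), selected for poly A+ RNA and sequenced from both ends, per the labels' protocols. The authors deposited raw read counts per gene, with no normalization. FastQC, Trim Galore, STAR 2.4.1d, HTSeq 0.11.0 and build mm10 are named, per the submitters' processing notes. Which annotation release was counted, and with which strand setting, is not given in the sources used here. Lines that name no gene held 16.0% to 20.4% of each table and stayed out of library sizes and tests.

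The filter was edgeR's filterByExpr, at a minimum count of 10 and a minimum total of 15. The 17308 remaining genes were fitted together with edgeR 4.0.16 (TMM factors, robust quasi-likelihood) in R 4.3.3 and called below a Benjamini-Hochberg adjusted p of 0.05. Each SE was derived from the fold change and its F value. TMM factors, also used for CPM, were 1.09 to 1.25 in control-labelled and 0.852 to 0.871 in Cre-labelled libraries. GENCODE M21 gave positions and 1 representative transcript per gene for levels per length, and BLAST 2.17.0 was used to search for copies. The procedure was tested on simulated data, where false calls exceeded the nominal share when each simulated gene kept its own dispersion.

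The members and the lists were chosen with earlier results of these data known. Values per library are given for called members and, in each structural class, for the members not called with the largest rise and fall and the one with the highest level per length in the Cre-labelled libraries. Outside the members, Tfam, the ND mRNAs, called regulators and the smallest p of each list are named, and other names were added after their values were seen. Differences between libraries of 1 group exceeded sampling noise (chi-square per degree of freedom 62.8 to 163 for control-labelled and 7.04 to 11.8 for Cre-labelled pairs), so all 6 were kept as separate libraries. No batch is named in the labels. Alternatives were other scaling factors, other filters, omission of mitochondrial genes, DESeq2 1.42.0, limma 3.58.1 with voom, a block for the replicate number, and omission of 1 library at a time.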

Additional observations from a re-analysis of the deposited data

How the results depend on the processing

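Over 15 alternative fits of the 12 called members, 155 of 180 values kept their direction and call, 25 kept the direction but missed the threshold, and 0 reversed. Without scaling factors the subunits called higher went from 6 to 0 and those called lower from 0 to 7. Assembly factors called higher went from 6 to 1 and those called lower from 0 to 5. The medians became -0.18 and -0.12, with an all-gene median of -0.46 in place of -0.03. Upper-quartile factors gave 1 assembly factor called lower, Ndufaf5 (28.4% of all genes). DESeq2 and no filter on low counts each called 8 subunits higher (23.1% and 11.5% of all genes). With 1 library left out in turn, subunits called higher ranged from 2 to 9 and lower from 0 to 1, and assembly factors called higher from 5 to 6 and lower from 0 to 1. The medians ranged from 0.08 to 0.44 and from 0.20 to 0.47. The cause of these shifts was not tested.

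Among members that did not pass, the log2 fold change of Ndufs8 turned from -0.02 to 0.0090 with limma voom, 0.0035 with the replicate block, 0.17 without control-labelled replicate 1, and 0.016 or 0.0043 without Cre-labelled replicate 1 or 3 (-0.18 to 0.17 over all libraries left out). Without scaling factors, Ndufa6 turned to -0.22, Ndufa10 to -0.031, Ndufb10 to -0.081 and Ndufaf7 to -0.33. Ndufa11 turned to 0.078 without control-labelled replicate 1 (-0.32 to 0.078 over all libraries left out).

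Same-numbered libraries did not deviate together (correlations -0.219, -0.072 and -0.065). With 3 libraries per group this check cannot exclude that the numbers pair the samples. With the replicate number as a block, 6 subunits and 6 assembly factors were called higher and 0 lower (18.6% of all genes higher). The medians with this block were 0.26 and 0.31. In no case was the best match of a library the one of its own number. The small number of libraries and the wide spread among the control-labelled ones limit the precision. The part of depth was not tested, and the lowest count of any member in a library was 151, for Ndufb2.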
